A study of Mus musculus with 2 samples.

Results

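Of the 23615 Sox9 peaks called on the autosomes of mouse rib chondrocytes, 844 lay far from any Sox6 peak. A peak is a stretch of genome called as enriched in chromatin immunoprecipitation with sequencing (ChIP-seq), and the midpoint of its called ends is used here as its centre. The 844 peaks were chosen by the called positions of both lists: they overlapped no Sox6 peak, and their centres were more than 10 kb from the nearest Sox6 centre on chromosomes 1 to 19. These members made up 3.57% of the autosomal Sox9 peaks (95% exact binomial interval 3.34 to 3.82) and 15.3% (14.4 to 16.3) of the 5499 that overlapped no Sox6 peak. The comparison classes were the 18116 Sox9 peaks on a Sox6 peak, which overlapped one by at least 1 bp, and the 4655 beside one, which overlapped none but had a Sox6 centre within 10 kb.

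SOX9 is the HMG-box transcription factor required for cartilage formation, and SOX6, with the closely related SOX5, is a SOXD factor that acts with SOX9 on cartilage genes. SOX9 binds DNA on its own or as a dimer through its HMG box and carries an activation domain. SOX5 and SOX6 carry no such domain and bind beside SOX9 at many chondrocyte enhancers. SOX9 is also known to associate with the starts of active genes through the basal transcription machinery, without binding the DNA there directly. Whether the peaks far from Sox6 are enhancers or gene starts was not analysed here. The gene tables at hand are on GRCm38, whereas the Sox6 peaks are on mm9 and the Sox9 peaks were taken as mm9. For the same reason no gene is named and no sequence is printed for any region, and positions are given on mm9 as chromosome, start and end, counted from 1.

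The Sox6 list came from 1 ChIP sample of primary rib chondrocytes of wild-type, untreated ICR mice at postnatal day 1 with an antibody to Sox6, and 1 input DNA sample came from the same kind of cells. The dissection kept proliferative and prehypertrophic cartilage and left out mature hypertrophic cartilage. The Sox9 list was called by the authors in the same manner from 2 earlier samples of a Sox9 ChIP-seq study of mouse primary rib chondrocytes, with the role of each sample, strain, age, genotype and any pooling of animals not given in the sources used here. Both lists hold positions only, so no level of a cartilage marker could be used to check the cell type. They hold no read counts or scores, so depth is unknown and a site with no called Sox6 peak is not shown to lack Sox6. Each factor has a single list, so the spread between samples cannot be seen, including that between any samples combined in the Sox9 list. All intervals below cover counting error only and treat peaks as independent, no difference between classes was tested, and antibody, animals, library and depth cannot be told apart from the factor.

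Sox9 peaks far from Sox6 were scarce at the head of the Sox9 list and more frequent in its later part, though a small minority throughout. The order of the list is not documented, and it was treated as a ranking because overlap with Sox6 was already known to fall along it, so the values below are a description of that order. The first member stood at place 417, and 2 of the 997 autosomal peaks among the first 1000 were members, or 0.201% (0.0243 to 0.723). In the first decile (10 equal parts) of the list 14 of 2372 autosomal peaks were far from Sox6, or 0.590% (0.323 to 0.988). The share was 2.88% (2.24 to 3.64) in the fifth decile and 6.19% (5.25 to 7.24) in the ninth. It no longer rose at the end, with 5.31% (4.44 to 6.29) in the last decile, an interval that overlaps those of the 3 deciles before it. Of the 844 peaks, 633 or 75% were in the second part of the list when it was divided at its midpoint, against 211 in the first. Members are drawn from the peaks without overlap, so the rise in their share is partly set by the known fall in overlap. Peaks on Sox6 went from 89.7% of the first decile to 64.9% of the last. Among peaks without overlap, 14 were far and 231 beside in the first decile, and 125 and 701 in the last.

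The median place of the peaks far from Sox6 was at 68.8% of the list (66.7 to 70.8, interval of the median), with quartiles at 50.0% and 84.4%. Peaks beside a Sox6 peak had their median at 62.5% (61.4 to 63.8), and peaks on a Sox6 peak at 45.4% (44.6 to 46.1). The classes therefore stood in the order on, beside and far, and the 3 intervals did not overlap. The earlier place of peaks on Sox6 was already known when the list was taken as a ranking. The share of peaks beside Sox6 rose through all 10 deciles, from 9.74% (8.57 to 11.0) to 29.8% (27.9 to 31.7), whereas the far share levelled off from the seventh decile (5.49%, 4.60 to 6.48). Whether these courses differ was not tested.

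**Figure D1:**
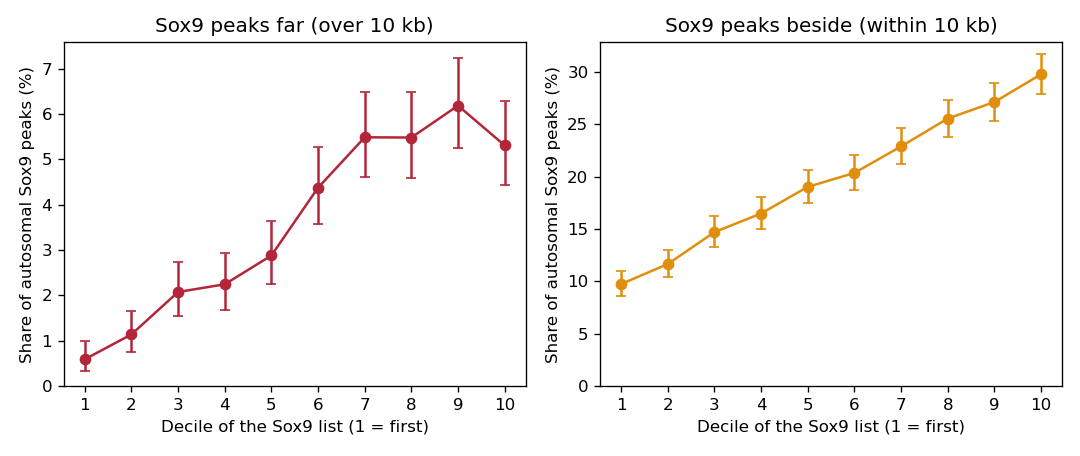
Share of autosomal Sox9 peaks (percent, y axis, with a separate scale in each panel) that were far from any Sox6 peak (left) or beside one (right) in each decile of the Sox9 list in its deposited order (x axis); bars are 95% exact binomial intervals. The far share goes from 0.590% in the first decile to 6.19% in the ninth, and the beside share from 9.74% to 29.8%.

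Distance from Sox6 varied widely among the members. The distances, which the choice of these peaks used, ran from 10.002 to 893.4 kb with a median of 21.3 kb and quartiles of 14.0 and 36.3 kb. There were 390 peaks (46.2%) between 10 and 20 kb from the nearest Sox6 centre, 314 (37.2%) between 20 and 50 kb, 91 (10.8%) between 50 and 100 kb and 34 (4.03%) between 100 and 200 kb. The other 15 (1.78%) were farther than 200 kb. The median place of the 390 nearest ones was at 68.9% of the list (66.6 to 71.5), that of the 314 next at 67.9% (63.8 to 72.0), that of the 91 between 50 and 100 kb at 68.2% (63.3 to 76.9) and that of the 34 between 100 and 200 kb at 71.7% (57.7 to 90.4). For the 15 beyond 200 kb it was 62.8%, with a wide interval of 19.3 to 88.0. In quintiles (5 equal parts), the median distance was 21.3 kb in the first quintile of the list (15.3 to 29.2) and 21.7 kb in the last (19.3 to 23.7). The relation of distance to place was not tested.

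The threshold of 10 kb fell within a continuous run of values. Just inside it were chr3:83172358-83172394 at 10002 bp from its Sox6 centre, chr13:32271768-32271991 at 10003.5 bp and chr11:118369327-118369489 at 10047 bp. Just outside were chr2:31721692-31721784 at 9972.5 bp, chr12:101592262-101592445 at 9971.5 bp and chr4:88564472-88564739 at 9963 bp. These 6 peaks differ by less than 100 bp in the value that assigned them to a class.

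The 10 members that came earliest in the Sox9 list were the highest-placed Sox9 calls without Sox6 nearby. The first, chr2:4366887-4366992, held place 417 and lay 16.5 kb from the nearest Sox6 centre, with another Sox9 peak 1.62 kb away. The second, chr8:94714654-94714810 at place 471, lay 14.6 kb from Sox6. The third, chr3:65667273-65667388 at place 1115, lay 21.3 kb from Sox6 and had a Sox9 neighbour at 6.52 kb. After these 3 came sites with much larger distances. The peak chr15:74917203-74917307 at place 1135 was 118 kb from a Sox6 centre on its left and 518 kb from one on its right, and 366 kb from any other Sox9 peak. The peak chr3:5860666-5860718 at place 1172 was only 53 bp wide and 246 kb from Sox6. The sixth, chr9:3020452-3020554 at place 1253, was 315 kb from Sox6. Those 3 sites were the only ones of the 10 beyond 100 kb.

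The remaining 4 were closer to Sox6. The peak chr1:185424593-185424711 at place 1289 was 11.4 kb from Sox6, with a Sox9 neighbour only 193.5 bp away. The peak chr8:45813559-45813718 at place 1448 was 15.3 kb from Sox6. The ninth, chr3:141569866-141569955 at place 1512, was 12.2 kb from Sox6, and the tenth, chr1:93231103-93231250 at place 1928, was 46.0 kb from it. As a group the 10 were narrow: 7 were at most 120 bp wide, and their median width was 111 bp (range 53 to 160). Another Sox9 peak was within 12.5 kb of 4 of them. They were spread over 6 chromosomes, with 3 on chromosome 3.

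Over the whole class the median width equalled that of shared sites. Peaks far from Sox6 had a median width of 186 bp (181 to 192) with quartiles of 144 and 234 bp, and peaks on a Sox6 peak had the same median, 186 bp (185 to 187). Peaks beside Sox6 were narrower, at 171 bp (168 to 173). Of the far peaks 8.77% (6.95 to 10.9) were under 100 bp wide, against 18.1% (17.0 to 19.2) of those beside Sox6 and 8.05% (7.66 to 8.46) of those on it. In this respect the far class lay nearer to the shared sites than to the other Sox9 peaks without overlap. A wider peak meets another more readily, so overlap and width are not fully separate measures.

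Early in the list the far peaks were narrower. In the first quintile the 41 far peaks had a median width of 150 bp (118 to 163), while the 4193 peaks on Sox6 there had 183 bp (180 to 184) and the 507 beside it 169 bp (166 to 177). From the second quintile on, far and shared peaks had overlapping intervals: 181 bp (166 to 194) and 183 bp (180 to 185) in the second, 199 bp (187 to 210) and 196 bp (191 to 199) in the last. The far medians along the 5 quintiles were 150, 181, 188, 184 and 199 bp, the first of them from only 41 peaks. Those of shared peaks went from 183 to 196 bp, and those of peaks beside Sox6 lay between 166 and 177 bp.

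**Figure D2:**
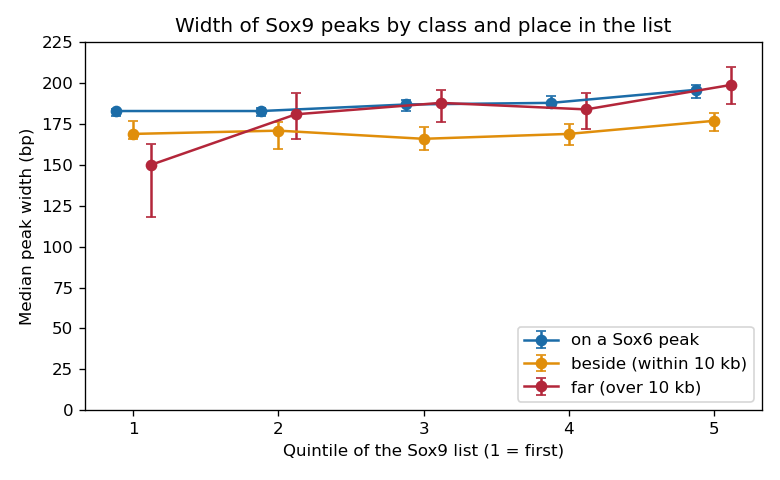
Median width in bp (y axis) of Sox9 peaks on, beside and far from Sox6 peaks in each quintile of the Sox9 list (x axis); bars are 95% intervals of the median and lines join the quintiles of 1 class. Far peaks are at 150 bp in the first quintile, below the 183 bp of peaks on Sox6, and at 199 bp in the last.

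The widest members all came from the later part of the list. They were chr3:28644850-28645339 (490 bp, place 17592), chr7:121960820-121961288 (469 bp, place 22936), chr2:167209076-167209531 (456 bp, place 23608), chr16:55636275-55636723 (449 bp, place 14495) and chr3:152285147-152285595 (449 bp, place 21516). Their distances to Sox6 ran from 11.2 kb, for the first, to 65.1 kb, for the peak on chromosome 16. At the other end, the 3 narrowest members, named after their values were seen, were chr13:115736024-115736030 (7 bp), chr9:41667024-41667036 (13 bp) and chr18:74699082-74699097 (16 bp). Peaks as short as 4 bp also occurred among Sox9 peaks on and beside Sox6, so calls of a few bases were not confined to the far class.

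Most peaks far from Sox6 were also far from other Sox9 peaks. The median distance to the nearest other Sox9 centre was 34.2 kb (quartiles 15.5 and 78.8 kb), compared with 11.0 kb for peaks on Sox6 and 3.41 kb for peaks beside it. Another Sox9 peak was within 12.5 kb of 144 of the 844 far peaks, or 17.1% (14.6 to 19.8), against 52.6% (51.9 to 53.3) of those on Sox6 and 70.2% (68.9 to 71.5) of those beside it. Much of this contrast is built into the choice of members, since a Sox9 peak that sits on a Sox6 peak can hardly lie within 10 kb of a member. Many peaks beside Sox6 are kept from nearly the same range. In the quintiles of the list they lay a median of 0.36 to 0.56 kb from the closest Sox6 centre. How much of the contrast is left beyond this rule was not tested. Of the 144, 99 had another member as a neighbour, 27 a peak beside Sox6 and 43 a peak on Sox6, and some had more than 1 kind.

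When members with centres up to 12.5 kb apart were joined, the 844 peaks formed 792 separate sites. Of these, 745 were single peaks, 42 were pairs and 5 were groups of 3, and no group held more than 3. The joined sites held 99 peaks (11.7%) and spanned a median of 1431 bp (range 247 to 12155), so most of them were compact.

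Among the 5 groups of 3, 4 were packed into 846 to 1431 bp. The group chr1:185423866-185424711 spanned 846 bp and held the peaks at places 1289, 3382 and 15042 of the list, 11.4 to 12.1 kb from Sox6. The group chr4:88605642-88606624 spanned 983 bp, 21.2 to 22.0 kb from Sox6. The group chr3:19527951-19529006 spanned 1056 bp and was 119 to 120 kb from the nearest Sox6 centre. In each of these groups the centres were less than 1 kb apart. The group chr7:26540017-26541447 spanned 1431 bp, and its first peak was 388 bp wide. The fifth group, chr9:3020452-3029875, was looser, with 3 peaks of 75 to 103 bp over 9424 bp.

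The group on chromosome 9 belonged to a stretch at the start of that chromosome with Sox9 calls and no Sox6 call. The first Sox6 peak on chromosome 9 began at 3335376, and all 4 Sox9 peaks before it were members. The first was chr9:3001249-3001331 at place 4596 of the Sox9 list, and the others were the group of 3 at places 1253, 3669 and 5780. They were 75 to 103 bp wide and 306 to 334 kb from Sox6. On no other autosome did a member precede the first Sox6 peak, and on chromosome 2 alone 1 member followed the last one. Whether these positions lie in repeated sequence was not analysed here. Without these 5 peaks the median place was 68.9% and the median width 186 bp.

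The 15 members beyond 200 kb were spread over 10 chromosomes, and 4 of them were the peaks at the start of chromosome 9. Places in the first 50% of the list were held by 7 of the 15, those 4 included, against 25% of all members. The farthest member was chr4:79617217-79617439, at 893.4 kb from Sox6 and 915 kb from the next Sox9 peak. It was followed by chr5:7292025-7292227 at 553 kb, chr15:17731198-17731460 at 541 kb, chr13:77035222-77035458 at 514 kb and chr10:91625162-91625225 at 355 kb. The peak on chromosome 15 had no Sox6 centre for 4557 kb on its left side and its nearest other Sox9 centre was 2382 kb away. These 5 peaks held places 14984 to 23293, all in the later part of the list.

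Peaks far from Sox6 were found in many separate gaps of the Sox6 list. Neighbouring Sox6 centres on autosomes were more than 20 kb apart in 23086 places, and only such a gap can hold a member between its ends. A member was present in 758 of them, or 3.28% (3.06 to 3.52). Of these gaps 688 held 1 member, 60 held 2 and 10 held 3 or 4. Gaps with a member had a median length of 75.3 kb (68.4 to 80.5), and gaps without had 42.9 kb (42.4 to 43.4). A longer gap has more room for a peak, so the density per length was computed as well.

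By length, the members became sparser as the Sox6 gap grew. Sequence more than 10 kb from every Sox6 centre, between the outermost Sox6 peaks, came to 1646 Mb or 68.5% of the range and held 839 members. This is 0.510 per Mb (0.476 to 0.545, exact Poisson interval), against 30.1 Sox9 peaks per Mb (29.7 to 30.5) in the 756 Mb closer to Sox6, a 59.1-fold lower density that the definition of the classes builds on. Within the far sequence the density was 1.51 per Mb (1.32 to 1.72) in gaps of 20 to 50 kb. It was 0.996 (0.883 to 1.12) in gaps of 50 to 100 kb, 0.677 (0.585 to 0.779) at 100 to 200 kb and 0.251 (0.199 to 0.313) at 200 to 500 kb. In the 552 gaps longer than 500 kb, which made up 602 Mb, there were 46 members or 0.0764 per Mb (0.0559 to 0.102). None of the 5 intervals overlapped its neighbour. Sequence in a short gap also lies closer to a Sox6 centre than most of that in a long one. Gap length and distance to Sox6 therefore cannot be told apart in these densities. Unsequenced stretches are counted in these lengths and were not subtracted.

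**Figure D3:**
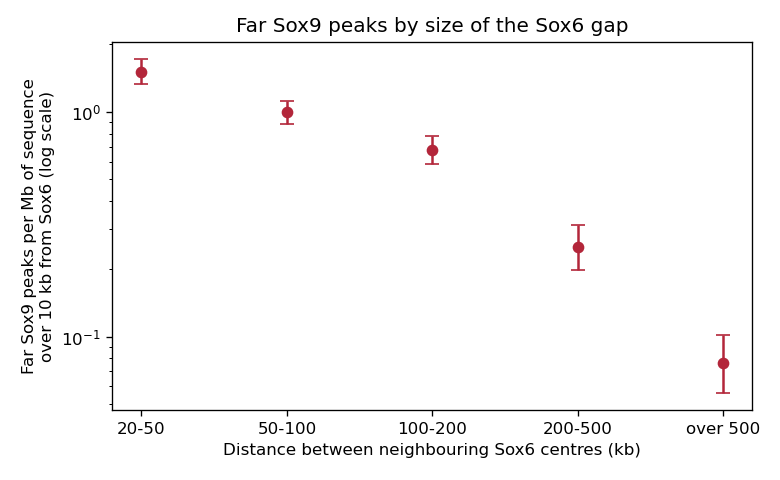
Members per Mb of sequence more than 10 kb from any Sox6 centre (y axis, log scale) by the distance between the neighbouring Sox6 centres (x axis, kb); bars are 95% exact Poisson intervals. The density is 1.51 per Mb in gaps of 20 to 50 kb and 0.0764 per Mb in gaps over 500 kb.

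The wider surroundings of the members were richer in Sox6 peaks than the autosomal mean, although their first 10 kb are empty by definition. Between 10 and 25 kb from a member there were 45.3 Sox6 peaks per Mb, and between 200 and 500 kb there were 46.5, against a mean of 32.4 over the autosomes. Around Sox9 peaks on Sox6 the corresponding values were 87.0 and 51.8 per Mb, and around those beside it 95.8 and 53.7. The density around members was thus nearly level from 10 to 500 kb, while it fell with distance around the other classes. The classes were chosen by Sox6 positions up to 10 kb away, so the contrast in the rings just beyond may be partly set by that choice. How much of it is left beyond the choice was not tested. Members near each other share the same Sox6 peaks, so these means carry no interval.

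Sox9 peaks were likewise denser around members than over the autosomes. There were 18.0 Sox9 peaks per Mb between 10 and 25 kb from a member and 14.5 between 200 and 500 kb, with an autosomal mean of 9.83. Around peaks on Sox6 the values were 30.5 and 16.4. Within 100 kb on either side a member had a median of 7 Sox6 peaks (quartiles 3 and 12), against 15 for peaks on Sox6 and 16 for those beside it. This window includes the first 10 kb, which the definitions leave empty around members and fill around the other classes. The contrast in these medians is therefore partly built in. No Sox6 peak at all was within 100 kb of 49 members, or 5.81% (4.33 to 7.60). The other classes have Sox6 in this window by definition. The count leaves out a Sox6 centre that coincides exactly with the Sox9 centre, so 1 peak on Sox6 was still counted as having none. No share for autosomal positions in general was computed, so the 5.81% stands without a background.

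**Figure D4:**
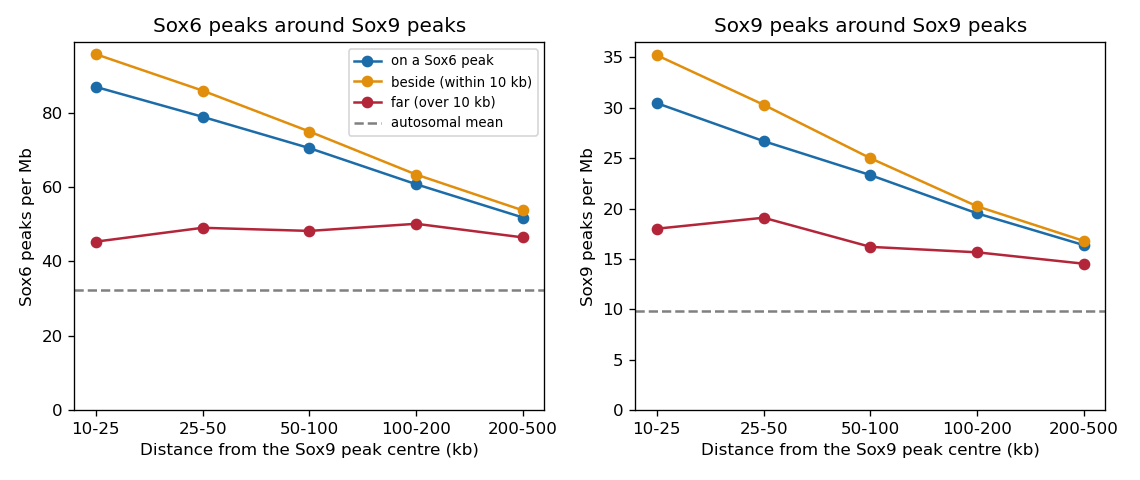
Sox6 peaks per Mb (left) and Sox9 peaks per Mb (right) at increasing distance in kb from the centres of Sox9 peaks on, beside and far from Sox6 (x axis, rings on both sides); the dashed line is the mean over the autosomes. Around far peaks Sox6 stays between 45.3 and 50.1 per Mb, above the mean of 32.4 and below the other classes.

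The Sox6 peaks nearest to the members had a median place and width close to those of the whole Sox6 list. There were 779 different ones, since some members share the same Sox6 peak. Their median place was at 51.6% of the Sox6 list (47.9 to 54.6), against 49.9% for all autosomal Sox6 peaks, and their median width was 148 bp (143 to 152) against 151 bp. Of the 779, 27.9% (24.7 to 31.1) overlapped some other Sox9 peak, compared with 23.2% (22.9 to 23.5) of the 77750 autosomal Sox6 peaks, and this difference was not tested.

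Members occurred on every autosome, and chromosomes 10 and 15 stood at the ends of the range. As a share of the Sox9 peaks of a chromosome they ranged from 2.24% (1.50 to 3.20, 29 of 1296) on chromosome 10 to 5.00% (3.79 to 6.45, 55 of 1101) on chromosome 15. On this scale these were the 2 chromosomes whose interval did not include the autosomal share of 3.57%. Per Mb of peak range there were 0.351 members (0.328 to 0.376) over the 19 autosomes, and 5 chromosomes had an interval that did not include this value. Lower were chromosome 10 with 0.228 per Mb (0.153 to 0.328) and chromosome 14 with 0.233 (0.154 to 0.339). Higher were chromosome 15 with 0.549 (0.413 to 0.714), chromosome 17 with 0.510 (0.375 to 0.678) and chromosome 11 with 0.498 (0.379 to 0.642). Chromosome 11 was the densest in Sox6, and its 59 members were 3.51% (2.69 to 4.51) of its 1679 Sox9 peaks. Per Mb of sequence more than 10 kb from Sox6 it was the highest of all, at 0.847 (0.645 to 1.09) against 0.510 over the autosomes. The order of chromosomes thus depends on the scale. These chromosomes were singled out after the values were seen, and differences between chromosomes were not tested.

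**Figure D5:**
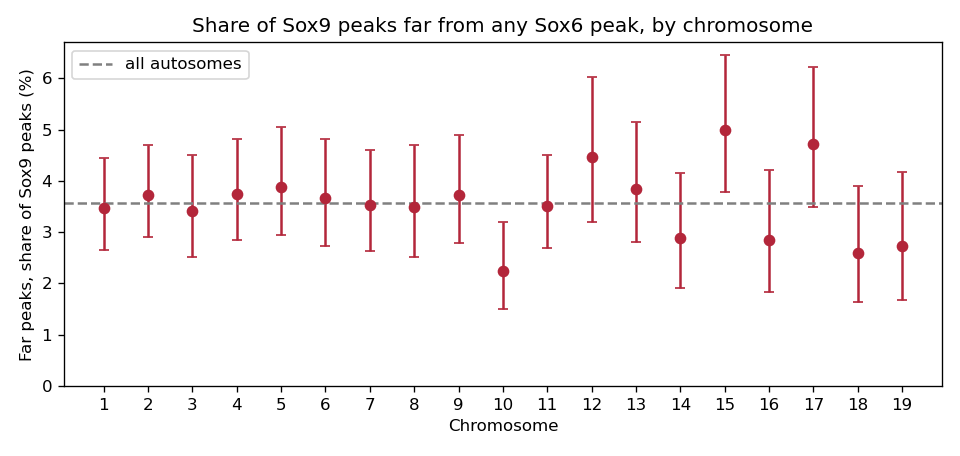
Members as a percentage of the Sox9 peaks of each autosome (y axis) by chromosome (x axis); bars are 95% exact binomial intervals and the dashed line is the share over all autosomes, 3.57%. Chromosome 10 (2.24%) lies below the line and chromosome 15 (5.00%) above it with their whole intervals.

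In windows of 1 Mb the members were thinly spread. Of 2418 such windows on the autosomes 1787 (73.9%) held no member, 476 held 1, 114 held 2 and 41 held 3 or more. The window with the most members, 6, was chr8:67000001-68000000, which also held 14 Sox9 and 27 Sox6 peaks in all. Its members ran from chr8:67021338-67021493 to chr8:67330523-67330727, formed 4 separate sites, and were 18.4 to 55.0 kb from Sox6. The earliest of them in the list was chr8:67094365-67094539, at place 5778. Next came windows with 5 members each, chr7:56000001-57000000 and chr9:110000001-111000000, where 53 Sox6 peaks were called in each. Against an autosomal mean of 32.4 Sox6 peaks per Mb, the window with 6 members was below and the windows with 5 were above.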

How the data were processed

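Each deposited list gives, in 3 unnamed columns, the chromosome and both ends of every peak as the authors called it, with no score or count. The submitters' processing notes name Bowtie and mm9, without versions, for the Sox6 and input samples. The names of the lists carry the mark FDR1, whose scale is not explained, while the caller and a separate build for the Sox9 peaks were not given in the sources used here. The Sox9 peaks were taken as mm9. Starts were read as counted from 0 and printed counted from 1. Classes, distances, gaps and runs were computed in Python 3.11.15 with pandas 2.3.3 and NumPy 2.4.6, and 95% intervals with SciPy 1.17.1 (Clopper-Pearson for shares, exact Poisson for densities, binomial order statistics for medians). Overlap meant at least 1 bp, runs joined centres within 12500 bp, and rings were trimmed at the outermost peaks of a chromosome. The class assignment was tested on simulated lists with evenly spaced Sox6 peaks. Distances in them stayed clear of the 10 kb threshold, so cases close to it were not covered.

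The members, classes and alternatives were chosen with earlier results of these data known. Regions were named by rule: the first 10 members in the list, the 5 farthest, the 5 widest, the groups of 3 or more, and 3 on either side of the threshold. The planned shares at gene starts and with SOX motifs, and the counts near listed cartilage, regulator and other cell type genes, were not run, because no mm9 annotation or genome was used. Chromosomes X and Y are outside the definition.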

Additional observations from a re-analysis of the deposited data

How the results depend on the processing

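The median place of members after those of peaks on and beside Sox6, and the lower share with a Sox9 neighbour than on Sox6, kept their direction under all 7 alternative definitions. The later place than peaks on Sox6 is partly set by the known fall of overlap along the list. The lower neighbour share is partly set by each distance rule, so these directions are no independent check. The count followed the definition: 1302 members (0.542 per Mb) at 5000 bp, 454 (0.189) at 20000 bp, 140 (0.0583) at 50000 bp, 2856 (1.19) against the first 50% of the Sox6 list, and 211 (0.0878) in the first 50% of the Sox9 list. The share with another Sox9 peak within 12.5 kb was then 32.3%, 11.2%, 13.6%, 23.0% and 12.3%, and with 5000 or 25000 bp allowed it was 9.24% or 40.4%. The median place moved to 64.9% with the shorter Sox6 list and to 65.0% within the shorter Sox9 list, and the median width to 192.5 bp at 50000 bp and 176 bp in the shorter Sox9 list. Fewer or more peaks enter under each of these by construction, and the cause of the width values was not tested. Of 36 planned values 15 stayed within their interval or within 1.5 times the count, among them all under edge distance (827 members) or all chromosomes (859), as did all 8 added after seeing the data (1 peak per group, no peak beyond the outermost Sox6 peaks, widths of 100 bp or more). No paired analysis was possible because there is 1 list per factor. Without read counts, the depth behind a missing Sox6 call cannot be stated.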

Other observations

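Outside the autosomes, chromosome X held 11 Sox9 peaks that met the same distance rule, of 245 Sox9 peaks there, and chromosome Y held 4. The whole list had 23865 Sox9 peaks, 23615 of them autosomal, so very few Sox9 peaks of any kind were on chromosome Y. Of the 844 autosomal members, 4 overlapped another Sox9 peak, as did 205 of the 18116 peaks on Sox6 and 74 of the 4655 beside it. A member can hardly overlap a peak on Sox6 under the 10 kb rule, so these counts are not alike, and they were not tested. Of the members, 839 had a Sox6 centre on both sides, and their median distance to the farther of these centres was 51.2 kb (47.5 to 55.4).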
